A study of Danio rerio with 6 samples.

Results

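The midbrain and the midbrain-hindbrain boundary are patterned by a small set of transcription factors and secreted signals, and 9 of these genes were followed here in heads of zebrafish (Danio rerio) embryos: otx2a, otx2b, en1b, en2a, en2b, gbx2, pax2a, fgf8a and wnt1. They were taken by name, with earlier results of these data known. Homozygous slbp1 -/- mutants of the allele rw440 (3 libraries) were set against their wildtype siblings (3 libraries), all at 2 days post fertilization. The gene product recognises the 3' stem-loop with which replication-dependent histone mRNA ends in place of a poly(A) tail. No further allele or agent is named for either group, the labels describe neither the lesion nor the number of heads in a library, and the whole head was used, so the eyes, ears, jaw muscle and skin were sampled together with the brain.

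The 9 names correspond to 11 of the 32520 genes in the table. For 7 of the names the symbol source gives only an upper-case symbol shared with other species, and every gene under that symbol was taken. OTX2 (ENSDARG00000011235) stands for otx2b. EN2 holds 2 genes (ENSDARG00000026599 and ENSDARG00000038868), which the sources used here do not tell apart as en2a and en2b. PAX2 (ENSDARG00000028148 and ENSDARG00000032578) and FGF8 (ENSDARG00000003399 and ENSDARG00000039615) likewise hold 2 genes each, so that the pax2b and fgf8b copies may be among them. otx2a (ENSDARG00000030703), en1b (ENSDARG00000098730), GBX2 (ENSDARG00000002933) and WNT1 (ENSDARG00000055554) are single genes.

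In the vertebrate neural tube, Otx2 marks the forebrain and midbrain and Gbx2 the anterior hindbrain, and the line where the 2 domains meet becomes the isthmic organizer. Cells there secrete Wnt1 on the midbrain side and Fgf8 on the hindbrain side, and the engrailed and Pax2 transcription factors maintain these signals and the identity of the tectum and cerebellum around them. In zebrafish, loss of pax2a or fgf8a removes the boundary region or the cerebellum. Several of these genes are also used outside it: otx2 genes in photoreceptor and bipolar precursors and in the pigment epithelium, pax2 genes in the optic stalk, ear and thyroid, fgf8a in the eye and ear, and engrailed genes in a jaw muscle.

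Total counts ran from 3421961 to 5395071 per library. Counts were scaled as CPM, counts relative to a common library total after adjustment by TMM factors. The groups were compared by the quasi-likelihood test of edgeR, with p-values adjusted (Benjamini-Hochberg) over 15561 genes and a threshold of 0.05. Of these, 4004 (25.7%) were called, 2015 higher (12.9%) and 1989 lower (12.8%) in mutants, with a median log2 fold change of 0.004 over all tested genes. When libraries were scaled by total counts alone this median moved to -0.26, with 1095 higher and 2787 lower calls. Mutant replicate 3 had the lowest TMM factor, 0.788, and stood apart from the other mutants on the second principal component, at -43.2 against 23.6 and 34.3. The Hox genes of the hindbrain list, singled out after their values were seen, were also scarce in it: 9 genes summed to 4.96 CPM there, 35.9 and 64.6 CPM in mutant replicates 1 and 2, and 80.7, 61.4 and 120.0 CPM in the siblings. Markers of forebrain, retina and pigment epithelium, ear and muscle were detected in both groups, with 0 genes of those lists at 0 throughout a group. The lists of midbrain and tectum, of hindbrain and cerebellum, and of midbrain and raphe neurons each had 1 gene at 0 in all mutants. In the hindbrain list 1 gene was at 0 in all siblings. The estimates of otx2a and FGF8 (ENSDARG00000003399) without that library are given with those genes. Without it the log2 fold changes were 0.87 and 0.335 for EN2 (ENSDARG00000026599 and ENSDARG00000038868), 0.23 for en1b and -0.43 for OTX2. GBX2 was then at -0.48, WNT1 at -0.17, and PAX2 at 0.08 (ENSDARG00000028148) and -0.18 (ENSDARG00000032578). The calls on the boundary genes stayed the same, with 2 higher and 0 lower.

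Among the boundary genes tested, otx2a had the largest difference between mutant and sibling heads. Of the 10 that passed the count filter, 2 were called higher, otx2a and EN2 (ENSDARG00000026599), and 0 lower, against 25.7% of all tested genes called in either direction. Estimates were positive for 5 and negative for 5. The mutant libraries lay wholly above the siblings for 4 genes and wholly below for 2, or 60% of the 10 against 43.6% of all tested genes. The other FGF8 gene (ENSDARG00000039615) had between 1 and 9 counts per library and was not tested. The data are from whole heads, so fewer cells of a type and less RNA per cell cannot be told apart for any of these genes.

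**Figure D1:**
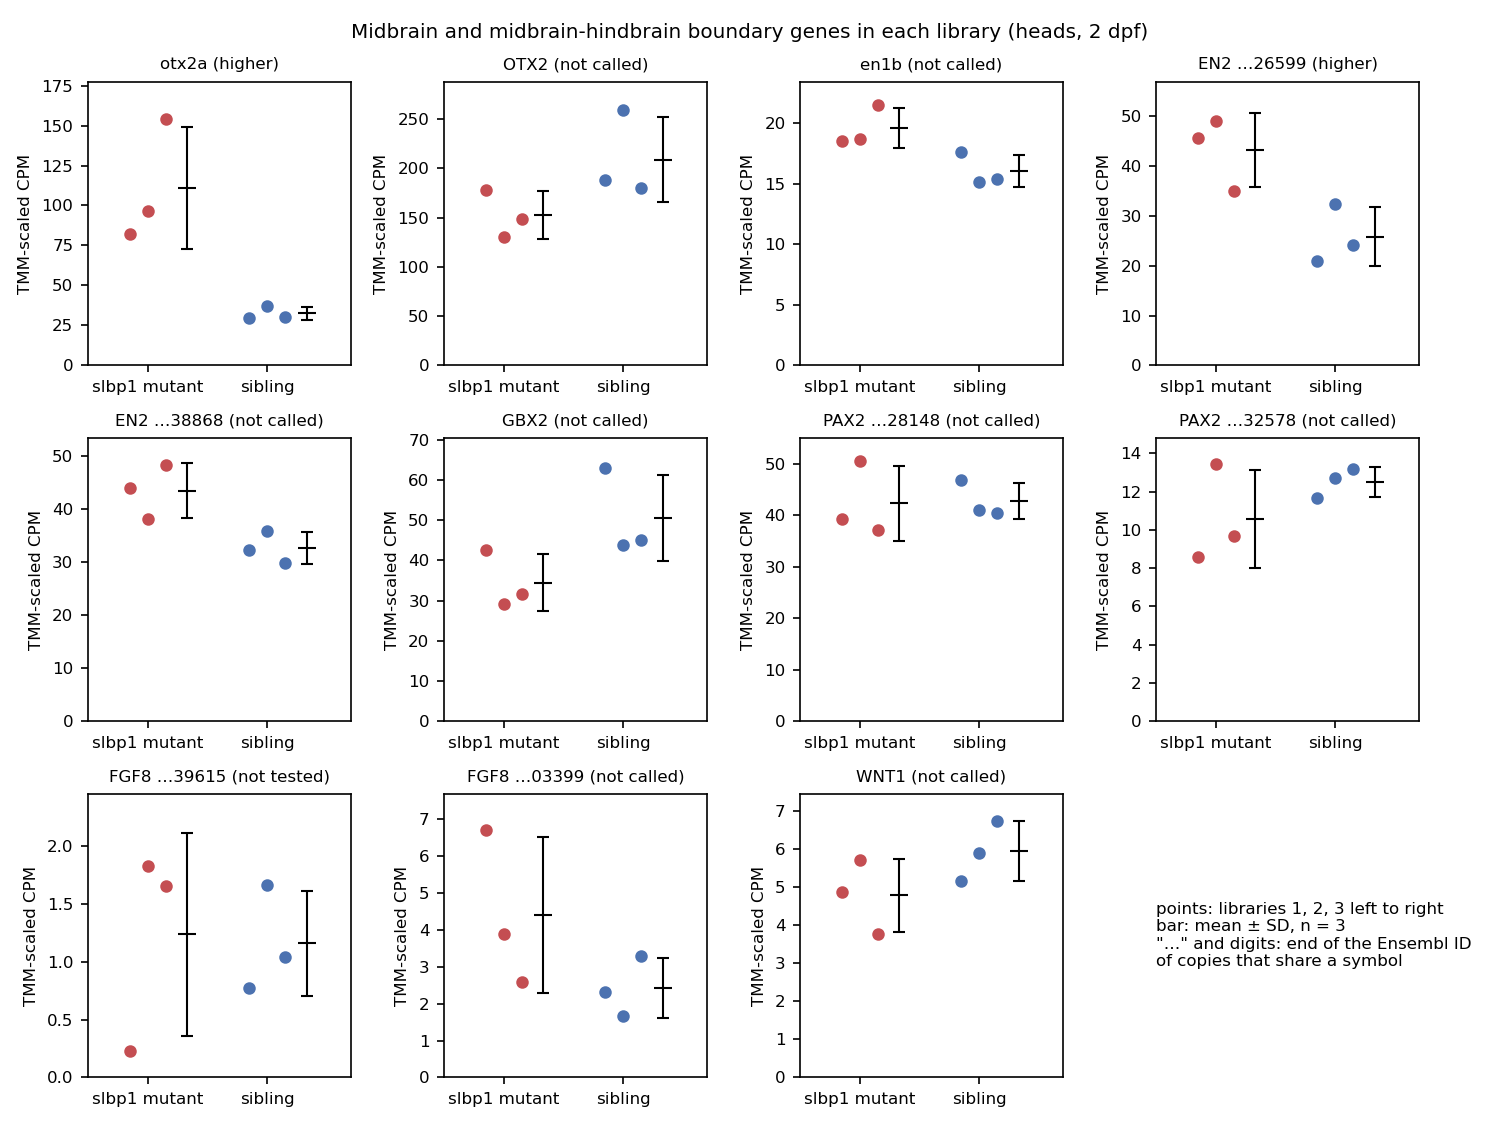
TMM-scaled CPM of the 11 genes in each slbp1 mutant library (left in each panel) and each sibling library (right), with the mean ± SD of 3 libraries. The 3 mutant values of otx2a, from 82.0 to 154 CPM, lie above all sibling values, and those of GBX2 and OTX2 lie below them.

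Of the 2 otx2 genes, which specify forebrain and midbrain, otx2a rose and OTX2 was not called. otx2a had 82.0, 96.3 and 154 CPM in mutant replicates 1 to 3, against 29.8, 37.4 and 30.5 CPM in the siblings. The groups were far from overlapping, and mutant replicate 3 stood above the other mutants. Mutant heads averaged 110.7 ± 38.1 CPM and sibling heads 32.6 ± 4.24 CPM (SD, n = 3 each). otx2a was thus 3.39-fold higher, and its log2 fold change was 1.76 ± 0.23 (SE; edgeR adjusted p = 0.0002005). This estimate lay at percentile 97.2 of all tested genes. Without mutant replicate 3 it was 1.46, and it was called under every other setting run.

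OTX2 had 178.6, 130.7 and 148.3 CPM in mutants, against 188.1, 258.9 and 180.2 CPM in siblings. All 3 mutant values lay below all sibling values, but the gap between mutant replicate 1 and sibling replicate 3 was small. The log2 fold change of OTX2 was -0.46 ± 0.19 (SE), which did not pass the threshold (edgeR adjusted p = 0.0899). With total counts alone OTX2 was called lower, at -0.71 and an adjusted p of 0.0134, and without sibling replicate 2 the estimate was -0.27 (adjusted p = 0.339). Many markers of cells that also use otx2 genes were lower in the same heads. In the list of photoreceptor, bipolar, pineal and pigment epithelium genes 9 of 14 were called lower and 0 higher. That is 64.3%, against 25.7% of all tested genes called in either direction. The 5 not called were listed for the pigment epithelium: DCT, MITF (ENSDARG00000003732), TYRP1 (ENSDARG00000029204) and RPE65 (ENSDARG00000094752 and ENSDARG00000054420). RPE65 (ENSDARG00000054420) had a positive estimate, 0.92 (edgeR adjusted p = 0.252). Of the pigment genes, pmela, TYRP1 (ENSDARG00000056151) and RPE65 (ENSDARG00000007480) were called lower. The list summed to between 1243 and 1644 CPM in mutants and between 3170 and 3503 CPM in siblings, with 0 of its 15 genes at 0 throughout a group. Much of that sum came from TYRP1 (ENSDARG00000056151), pmela and DCT, with means of 905, 516.1 and 498 CPM in siblings and 350.5, 328.5 and 338.5 CPM in mutants. Such pigment genes do not single out the eye in heads that include skin. Mutant heads had 8.65 ± 3.83 CPM and sibling heads 243.8 ± 45.6 CPM of crx, a photoreceptor and pineal transcription factor (SD, n = 3 each). The part of these cells in the OTX2 level was not tested.

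As a share of the counts of both otx2 genes, otx2a took 31.5% (95% Wilson interval 28.8 to 34.2%), 42.4% (39.4 to 45.5%) and 50.9% (48.2 to 53.7%) in the mutant libraries, against 13.7% (11.5 to 16.1%), 12.6% (11.1 to 14.3%) and 14.5% (12.6 to 16.5%) in the siblings. The intervals cover counting error only. The sibling libraries agreed within these intervals, while the mutant libraries differed among themselves and were all above the siblings. Added together the 2 genes had 260.6, 227.0 and 302.3 CPM in mutants, against 217.9, 296.3 and 210.7 CPM in siblings, and the groups overlapped. The sum averaged 263.3 ± 37.7 CPM in mutant heads and 241.6 ± 47.5 CPM in sibling heads (SD; exact permutation p = 0.5, n = 3 each).

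GBX2, the transcription factor of the hindbrain side of the boundary, had 42.6, 29.2 and 31.7 CPM in mutants, against 62.9, 43.7 and 45.0 CPM in siblings. Every mutant value was below every sibling value, though mutant replicate 1 and sibling replicate 2 lay close together. The log2 fold change was -0.55 ± 0.21 (SE), short of the threshold (edgeR adjusted p = 0.0704). The call on GBX2 turned on the processing: among the settings without a replicate block, it was made lower with total counts alone (-0.81, adjusted p = 0.0293), without a low-count filter (0.0480) and without mutant replicate 1 (0.0396), and not without sibling replicate 1, where the estimate was -0.37 (0.268). Its relative GBX1, which shares early functions with it at the zebrafish boundary, averaged 6.60 ± 4.295 CPM in mutants and 11.6 ± 4.41 CPM in siblings and was not called (edgeR adjusted p = 0.215).

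The engrailed genes, repressors that keep the midbrain and cerebellar identity of cells next to the boundary, all had estimates above 0, and 1 of 3 passed the test. EN2 (ENSDARG00000026599) had 45.6, 49.1 and 34.95 CPM in mutants, against 21.0, 32.5 and 24.1 CPM in siblings. The groups did not overlap, with mutant replicate 3 and sibling replicate 2 closest to each other. It was 1.67-fold higher in mutants, at 0.74 ± 0.21 on the log2 scale (SE; edgeR adjusted p = 0.0232). The call was lost in 5 of the other settings: for EN2 (ENSDARG00000026599) the adjusted p was 0.161 with total counts alone, 0.0772 without mutant replicate 1, 0.0850 without mutant replicate 2, 0.1002 without sibling replicate 1 and 0.0911 without sibling replicate 3.

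EN2 (ENSDARG00000038868) had 44.0, 38.1 and 48.4 CPM in mutants, against 32.3, 36.0 and 29.8 CPM in siblings. The groups again did not overlap, and the log2 fold change, 0.41 ± 0.18 (SE), was not called (edgeR adjusted p = 0.106). en1b had 18.5, 18.7 and 21.5 CPM in mutants, against 17.6, 15.1 and 15.4 CPM in siblings. Its groups lay close together without overlap, at 0.29 ± 0.22 on the log2 scale (SE; edgeR adjusted p = 0.359).

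Summed over the 3 engrailed genes, mutant libraries were nearly equal after TMM scaling, at 108.2, 105.9 and 104.8 CPM, against 70.9, 83.5 and 69.2 CPM in siblings. Mutant heads averaged 106.3 ± 1.702 CPM and sibling heads 74.6 ± 7.83 CPM (SD; exact permutation p = 0.1, n = 3 each, the smallest that 3 against 3 libraries allow). Both the near-equality and the gap depend on the TMM factors, which were lowest, 0.788, in mutant replicate 3. That library had 444 of 5395071 raw counts in these genes, and sibling replicate 2 had 453 of 5258641. Scaled by total counts alone, the groups of this sum would thus overlap, and the exact p applies to TMM-scaled values only. EN1 (ENSDARG00000014321), taken for the partner gene en1a, averaged 5.94 ± 3.12 CPM in mutants and 3.67 ± 1.17 CPM in siblings and was not called (adjusted p = 0.277, edgeR). Engrailed genes are also used in a jaw muscle, and muscle genes went mostly the other way. Of 5 muscle genes 3 were called lower and 1, MYF5, higher. That is 80% in all, against 25.7% of all tested genes. The muscle genes had sums of 29.0 to 35.4 CPM in mutants and 72.7 to 111.5 CPM in siblings. Without mutant replicate 3, or without any 1 of the sibling libraries, 0 muscle genes were called higher. These muscle genes do not single out that jaw muscle, and the part of muscle in the engrailed values was not tested.

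The PAX2 genes, which start the boundary programme and switch on engrailed genes there, were not called. PAX2 (ENSDARG00000028148) had 39.4, 50.6 and 37.1 CPM in mutants, against 46.8, 41.1 and 40.5 CPM in siblings, and the groups overlapped fully. The log2 fold change was -0.01, with a 95% interval from -0.40 to 0.38 (edgeR adjusted p = 0.968), so a change as large as that of otx2a lies outside the interval. PAX2 (ENSDARG00000032578) had 8.57, 13.5 and 9.68 CPM in mutants, against 11.6, 12.7 and 13.2 CPM in siblings, with a log2 fold change of -0.24 and a 95% interval from -0.82 to 0.33. Other tissues with pax2 genes were mixed. Of the optic stalk genes VAX1 was called higher and VAX2 was not called. In the otic vesicle list 5 of 11 were called lower and 1 (oc90) higher (54.5% in all, against 25.7% of all tested genes). The otic genes had sums of 181.8 to 382.3 CPM in mutants and 724.2 to 798.6 CPM in siblings. Without mutant replicate 2, 8 otic genes were called lower. Of the 5 thyroid genes, 2 (both NKX2-4 copies, which the forebrain list also holds) were called higher and 1 (PAX8) lower (60% in all). Their sums were 70.2 to 91.2 CPM in mutants and 60.8 to 67.5 CPM in siblings. The part of these tissues in the PAX2 levels was not tested.

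The secreted signals were measured at low counts. FGF8 (ENSDARG00000003399), a ligand of the organizer, had 29, 17 and 11 counts in mutants, against 9, 9 and 19 in siblings, or 6.72, 3.88 and 2.60 CPM against 2.33, 1.66 and 3.29 CPM. Mutant replicate 3 lay among the siblings. The log2 fold change of 0.85 had a 95% interval from -0.22 to 1.91 (edgeR adjusted p = 0.227), too wide to separate no change from a change the size of that of otx2a. For this FGF8 gene the estimate ran from 0.40 without mutant replicate 1 to 1.14 without sibling replicate 3, and it was 1.12 without mutant replicate 3. The other FGF8 gene (ENSDARG00000039615) had 1, 8 and 7 counts in mutants and 3, 9 and 6 in siblings.

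WNT1, the Wnt ligand of the midbrain side and the roof, had 21, 25 and 16 counts in mutants, against 20, 32 and 39 in siblings, or 4.86, 5.70 and 3.78 CPM against 5.18, 5.90 and 6.75 CPM. The groups overlapped, with a log2 fold change of -0.32, a 95% interval from -1.07 to 0.44 (edgeR adjusted p = 0.545). At this depth the interval of WNT1 still holds a 2-fold loss.

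**Figure D2:**
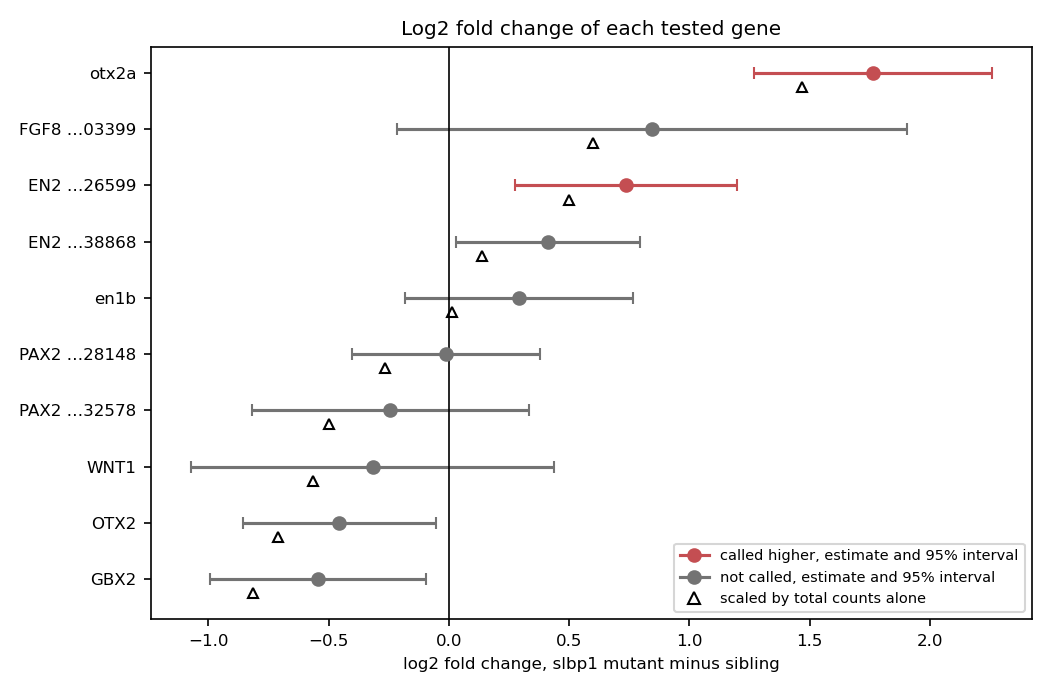
Log2 fold change of the 10 tested genes, slbp1 mutant minus sibling, with 95% intervals from the edgeR fit, and the estimate with libraries scaled by total counts alone (triangles). otx2a lies at 1.76 and GBX2 at -0.55, and the triangles lie to the left of the estimates, where total counts alone moved the median of all genes to -0.26.

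Ratios of counts within a library do not depend on how libraries are scaled, and 5 were compared by exact two-sided permutation tests, in which 3 against 3 libraries cannot give a p below 0.1. The log2 ratio of otx2a to OTX2 was -1.12, -0.44 and 0.05 in mutants, against -2.66, -2.79 and -2.56 in siblings. The mutants were all higher, by 2.17 on the log2 scale or 4.48-fold (exact p = 0.1, adjusted over 5 ratios 0.25). The log2 ratio of WNT1 to both FGF8 genes was -0.50, 0.00 and -0.17 in mutants, against 0.71, 0.81 and 0.63 in siblings, a difference of -0.94 with no overlap (exact p = 0.1, adjusted 0.25). It rests on few reads, from 12 to 30 counts of both FGF8 genes per library. Every mutant ratio thus lay below every sibling ratio, although neither ligand was called alone.

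The other 3 ratios overlapped between groups. That of both otx2 genes to GBX2, planned for the 2 sides of the boundary, had a log2 mean of 2.94 ± 0.32 in mutants and 2.26 ± 0.49 in siblings (SD, n = 3 each; exact p = 0.2, adjusted 0.25). In whole heads this ratio also takes in transcripts from cells away from the boundary, such as those of the eye, and their part was not tested. That of EN2 (ENSDARG00000026599) to EN2 (ENSDARG00000038868) averaged -0.02 ± 0.42 in mutants and -0.36 ± 0.24 in siblings (SD, n = 3 each; exact p = 0.3). That of en1b to both EN2 genes averaged -2.14 ± 0.17 in mutants and -1.85 ± 0.29 in siblings (SD, n = 3 each; exact p = 0.2, adjusted 0.25).

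**Figure D3:**
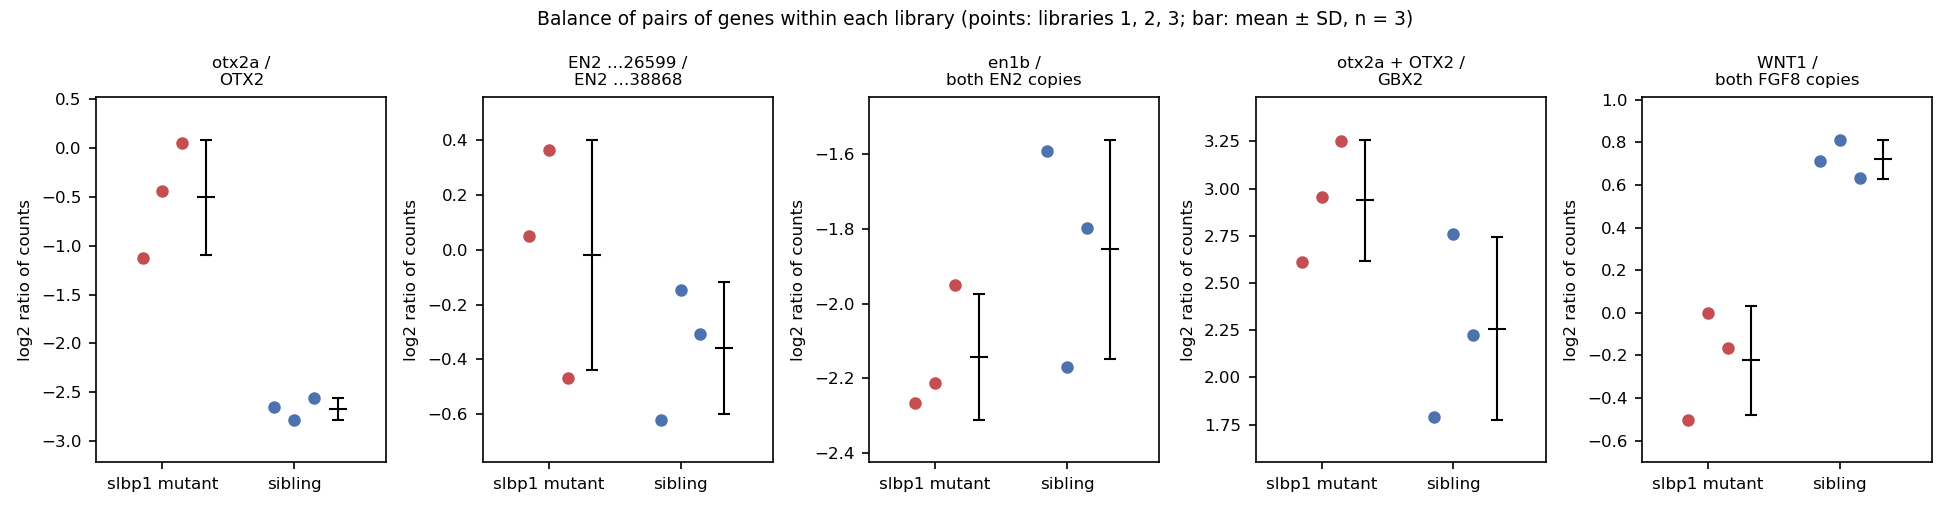
Log2 ratio of counts within each library for 5 combinations of the boundary genes, slbp1 mutants left and siblings right in each panel, with the mean ± SD of 3 libraries. The groups do not overlap for otx2a over OTX2 and for WNT1 over both FGF8 genes, and overlap for the other 3 ratios.

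Of the genes that act with the members at the isthmic organizer, 5 of 18 tested were called higher and 1 lower (33.3% in all, against 25.7% of all tested genes), with a median log2 fold change of 0.32 against 0.004 over all tested genes. CNPY1, which zebrafish work links to FGF signalling at the boundary, averaged 21.9 ± 4.33 CPM in mutant heads and 8.60 ± 1.698 CPM in sibling heads (SD, n = 3 each), 1.34 higher on the log2 scale (edgeR adjusted p = 0.00283). PAX5, a later partner of pax2a at the boundary, had 16.2, 19.9 and 17.7 CPM in mutants, against 6.99, 9.96 and 3.64 CPM in siblings. Its log2 fold change was 1.39 (edgeR adjusted p = 0.00875), so PAX5 was called higher while neither PAX2 gene was. An FGF receptor gene, FGFR1 (ENSDARG00000011190), was higher by 0.85 on the log2 scale (adjusted p = 0.00966), and lost the call with total counts alone. The other gene under that symbol, FGFR1 (ENSDARG00000011027), was not called (0.30, edgeR adjusted p = 0.298), nor were FGFR2 and FGFR3.

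FGF3 and WNT8B, other ligands of the brain, were the remaining 2 called higher. PAX8, also a thyroid and ear gene, was lower, at -1.26 on the log2 scale (edgeR adjusted p = 0.0158), but not called without sibling replicate 3. WNT10B, a neighbour and partner of wnt1, averaged 5.88 ± 0.686 CPM in mutants and 4.55 ± 1.89 CPM in siblings and was not called (adjusted p = 0.556). her5, a Notch-independent repressor that keeps the boundary's progenitors undifferentiated in zebrafish, had 5, 14 and 14 counts in mutants and 4, 5 and 6 in siblings, and fgf17 had 5, 3 and 1 in mutants and 0, 2 and 8 in siblings. Both were below the count filter.

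Among genes that FGF and Wnt signals induce, 2 of 12 were called higher and 1 lower, with a median of 0.26. The share called, 25%, was near the 25.7% of all tested genes. The FGF-induced transcription factor gene etv5b averaged 79.7 ± 4.81 CPM in mutant heads and 44.1 ± 5.21 CPM in sibling heads (SD, n = 3 each), 0.85 higher on the log2 scale (edgeR adjusted p = 0.00233). DUSP6, a phosphatase that damps FGF signalling, was higher by 0.80 (adjusted p = 0.00777) and lost the call with total counts alone. The Wnt effector gene LEF1 fell, to 43.6 ± 10.2 CPM in mutant heads, against 91.0 ± 15.03 CPM in sibling heads (SD, n = 3 each; log2 fold change -1.06, adjusted p = 0.00213). SPRY1, SPRY2, SPRY4, ETV4 and AXIN2, further feedback genes named after their values were seen, were not called. Nor were the rest of the list, etv5a, dkk1b, IL17RD and NKD1. Of the genes not called, IL17RD (0.58, edgeR adjusted p = 0.0860) and NKD1 (0.39, 0.0994) came nearest to the threshold.

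Genes of the midbrain and tectum split by direction: 6 of 26 were called higher and 8 lower (53.8% in all, against 25.7% of all tested genes), with a median of -0.29. Among the risers was HELT, a factor that selects the GABA neuron fate in the mouse midbrain, with 23.6 ± 2.58 CPM in mutant heads and 10.5 ± 2.28 CPM in sibling heads (SD, n = 3 each; log2 fold change 1.17, edgeR adjusted p = 0.00430). DMBX1 (ENSDARG00000002510), a homeobox gene of midbrain progenitors, rose by 1.12 (adjusted p = 0.00766), and PAX7 (ENSDARG00000070818), of the dorsal midbrain and tectum, by 0.72 (adjusted p = 0.0131). This PAX7 gene lost the call with total counts alone, without sibling replicate 1 and without sibling replicate 3. The other PAX7 gene (ENSDARG00000100398) was not called (0.275, edgeR adjusted p = 0.360), and its groups overlapped.

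The 3 lower genes of that list with the lowest p were GATA3, POU4F1 and MEIS2. GATA3, used in midbrain GABA neurons and elsewhere, averaged 37.8 ± 4.32 CPM in mutant heads and 91.6 ± 17.9 CPM in sibling heads (SD, n = 3 each; log2 fold change -1.27, edgeR adjusted p = 0.000387). POU4F1, of tectal and sensory neurons, had 12.3, 9.35 and 2.36 CPM in mutants, against 51.8, 50.5 and 47.1 CPM in siblings (log2 fold change -2.63, edgeR adjusted p = 0.000938). MEIS2 (ENSDARG00000098240), a cofactor of Otx2 in the chick tectum, was lower, at -1.05 on the log2 scale (adjusted p = 0.00230). Several of these genes are also transcribed in the retina and ear, and their part was not tested. OTX1, the remaining otx gene of that list and named after its values were seen, averaged 74.7 ± 6.18 CPM in mutants and 57.3 ± 11.4 CPM in siblings and was not called (adjusted p = 0.133).

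In the anterior hindbrain and cerebellum list, 5 of 24 were called higher and 1 lower, with a median of 0.12. The share called, 25%, was again near the 25.7% of all tested genes. The retinoic acid degrading enzyme gene CYP26C1 averaged 48.5 ± 8.42 CPM in mutant heads and 22.0 ± 5.11 CPM in sibling heads (SD, n = 3 each; log2 fold change 1.14, edgeR adjusted p = 0.00250). ZIC4, of the dorsal neural tube and cerebellum, was higher by 0.82 (adjusted p = 0.00413) and lost the call with total counts alone. ATOH1, the factor of cerebellar granule cell progenitors, was higher by 1.31 (adjusted p = 0.0157) and lost it with total counts alone, without mutant replicate 2 and without sibling replicate 1. Its relative atoh1b, named after its values were seen, was not called (0.43, edgeR adjusted p = 0.511). atoh1c, another gene of cerebellar progenitors in zebrafish, chosen after its values were seen, had 0 counts in every mutant library, which allows up to 0.709 CPM, and 10, 8 and 16 counts in siblings. The tested Hox genes of the list, also named after their values were seen, all had negative estimates and were not called. These ran from -0.49 for hoxa2b to -2.26 for HOXD3.

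Regional and stage markers around the members moved as follows. Of 16 forebrain genes 3 were called higher and 4 lower (43.8% in all, against 25.7% of all tested genes, median 0.35). Of 11 genes of dopamine, serotonin and motor neurons, in the list named for the midbrain and raphe, 0 were called higher and 3 lower, ISL1 and both NR4A2 genes (median -0.84). That share, 27.3%, was near the 25.7% of all tested genes. The dopamine neuron genes TH and SLC6A3 were not called and had positive estimates, 0.51 and 0.86. TPH2 and FEV, of serotonin neurons, were not called either, at -0.84 and -1.76. In whole heads the genes of this list do not single out the midbrain or raphe, and the part of the retina and other regions was not tested. Progenitor and proliferation genes were called higher for 7 of 8 (87.5%), with sums of 4992 to 5764 CPM in mutants and 1877 to 2605 CPM in siblings. Pan-neuronal genes were called lower for 6 of 8 and higher for 1 (87.5% in all). The gene called higher was STMN1 (ENSDARG00000004169), which may be a copy other than the stmn1b that the list names. The other gene under that shared symbol, STMN1 (ENSDARG00000033655), was called lower, at -0.91 on the log2 scale. For a likeness of pattern, the list genes with the smallest root mean square difference in centred log2 CPM over the 6 libraries were taken. For otx2a these were the replication factor gene PCNA (0.187) and STMN1 (ENSDARG00000004169, 0.217), the gene called higher in the pan-neuronal list. For EN2 (ENSDARG00000026599) they were etv5b (0.154) and PAX7 (ENSDARG00000070818, 0.189). The likeness is a description over 6 libraries that share their groups, and each of these 4 genes was itself called higher. Whether the higher level of otx2a goes with the larger share of proliferation transcripts was not tested.

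**Figure D4:**
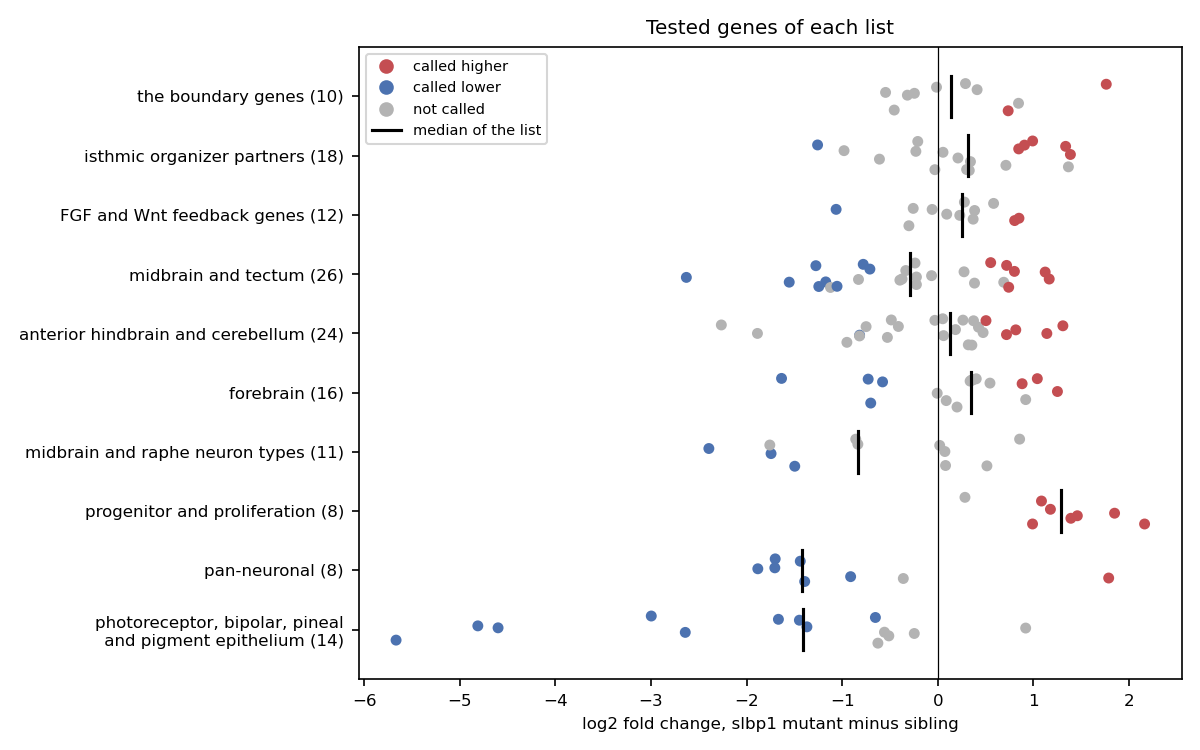
Log2 fold change, slbp1 mutant minus sibling, of the tested genes of each list (number in parentheses), coloured by call, with the median of the list as a black line. The boundary genes and the isthmic organizer partners have medians of 0.14 and 0.32, the progenitor and proliferation genes one of 1.29 and the pan-neuronal genes one of -1.42.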

How the data were processed

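RNA was sequenced from 6 libraries of zebrafish heads. The table deposited by the authors holds raw counts for each Ensembl gene; HISAT2, featureCounts and the build GRCz11 are named per the submitters' processing notes, without versions. The sources used here give no annotation release, strand setting or rule for multi-mapping reads, so reads of paralogous copies such as the 2 EN2 genes may have been lost or split. Group and replicate came from the titles, which do not say whether libraries are separate clutches or pools, so the error behind each p-value is that among these libraries and may be only technical. Replicate libraries differed by more than sampling noise.

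Symbols were found for 29201 of 32520 genes. The test was that of edgeR 4.0.16 in R 4.3.3 (filterByExpr, TMM, robust quasi-likelihood, two-sided), and the procedure was tested on simulated data, where it missed most of the smaller changes and its share of false calls was above the nominal rate. SE is the log2 fold change over the root of the F statistic. Ratios had 0.5 added to the summed counts on each side. A floor is 3 counts in a library. Alternatives were RLE, upper quartile and total-count scaling, no filter or 1 CPM in 3 libraries, DESeq2 1.42.0, limma-voom (limma 3.58.1), a replicate block and each library left out. The members and lists were chosen with earlier results of these data known. Named genes are the members, up to 3 called genes in each direction of the 4 pathway lists by lowest p, and 7 fixed partners (gbx1, pax5, her5, fgf17, wnt10b, pax2b, en1a); 1 gene that this rule names is not reported here. Members were taken out of the lists. Ratios planned for en2a over en2b and for fgf8a used the genes under the shared symbols. Sequences are not used here.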

Additional observations from a re-analysis of the deposited data

How the results depend on the processing

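otx2a was called higher in each of 14 other settings. Scaling by total counts alone gave 1095 higher calls in all, left 1 boundary gene higher and made 2 lower, with EN2 (ENSDARG00000026599) at 0.50, OTX2 at -0.71 and GBX2 at -0.81. There 2 isthmic partners were higher and 2 lower, and 1 feedback, 2 midbrain, 1 hindbrain, 1 thyroid and 0 muscle genes were higher. The cause was not tested beyond the shift of the median of all genes. GBX2 was also called without a low-count filter (-0.55), so that 1 boundary gene was lower, and lower calls were then 2 among partners, 2 in the hindbrain and 5 among midbrain and raphe neurons. A filter of 1 CPM gave 2 lower partners and 2 lower hindbrain genes, and limma-voom 2 lower hindbrain, 8 lower otic and 0 higher muscle genes.

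A replicate block raised the calls to 5059 (4004 without it), and with it GBX2 was called (-0.55, adjusted p = 0.0160, 1 boundary gene lower) and 2 partners were lower. The labels state no pairing, and the deviations of libraries with equal numbers had correlations of 0.24, 0.09 and 0.18, each library best with its own number, a hint from the data only.

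Leaving out 1 library gave 2521 to 3763 calls, 1363 to 1952 higher and 1158 to 1811 lower, the fewest without sibling replicate 1. EN2 (ENSDARG00000026599) ranged from 0.61 to 0.94 and GBX2 from -0.73 to -0.37, and OTX2, not called in these fits, from -0.59 to -0.27, with 1 to 2 boundary genes higher and 0 to 1 lower. Higher calls ranged from 3 to 6 among partners, 3 to 6 in the midbrain 2 to 4 in the hindbrain, 1 to 2 among thyroid and 0 to 1 among muscle genes. Lower calls ranged from 1 to 2 among partners, 1 to 4 in the forebrain 0 to 4 in the hindbrain, 5 to 8 among otic and 0 to 1 among thyroid genes. Depth limits FGF8, WNT1, her5 and fgf17.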
